A study of Drosophila melanogaster with 4 samples.

Results

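The mitochondrial ribosomal protein genes of *Drosophila melanogaster* were followed in larvae mutant for *ash2*, a gene of the trithorax group, whose proteins act on chromatin to keep genes active. Mitochondria keep ribosomes of their own, which translate the few messenger RNAs of the mitochondrial genome into core subunits of the respiratory chain. All protein components of these ribosomes are encoded in the nucleus, made in the cytosol and imported, so that their synthesis has to be matched to that of the ribosomal RNAs transcribed inside the organelle. The large subunit (*mRpL* genes) joins amino acids and the small subunit (*mRpS* genes) reads the messenger. Many of their proteins descend from bacterial ribosomal proteins, and others were added during the evolution of mitochondria.

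Members were taken by name: every gene with a current symbol of *mRpL* or *mRpS* and a number was kept, if a probe of the array was annotated with that gene and no other. This gave 69 of the 12058 genes with a probe, 43 named for the large and 26 for the small subunit, each with 1 probe. The current gene table holds 73 such genes. Of the other 4, *mRpL47* shares its probe with *Rlb1*, and *mRpL14*, *mRpL34* and *mRpL53* were not analysed here. Each value is a ratio of mutant over wild type on a log scale whose base is likely 2, so that 1 stands for a 2-fold higher and -1 for a 2-fold lower signal in the mutant.

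The mutant RNA came from whole w1118;+;ash2I1 larvae of the third instar, staged by blue food, of a line whose chromosomes X, Y and 2, but not 3, had been replaced by those of the isogenic wild type. The mutation was kept over a balancer in that stock, and larvae without the balancer's marker were collected. The reference was 1 pool of RNA from w1118;+;+ larvae of the isogenic line, staged in the same way. There were 2 mutant extractions, each hybridised to 2 arrays, so that arrays 1 and 2 repeat extraction 1 and arrays 3 and 4 repeat extraction 2. Every test therefore rests on n = 2 extractions, and their number limits the precision. The pool is common to all arrays and its own spread is not included, so any peculiarity of the pool would enter every ratio. Per the labels the mutant carried the same dye on every array, with no dye swap. A gene's dye bias would therefore enter every ratio alike and cannot be told apart from a change in the mutant. The labels do not say from how many larvae each extraction was made.

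Spots that failed the authors' quality thresholds were empty, and this decided which members could be described. A value on at least 1 array was left for 36 of the 69 members (52.2%), against 3507 of all 12058 genes (29.1%). Array 1 held 26 members (37.7%, against 20.6% of all genes), array 2 held 8 (11.6% against 12.3%) and array 3 held 22 (31.9% against 20.3%). No member had a value on array 4, which held 378 genes in all (3.13%), so every member value of extraction 2 comes from array 3 alone. Both extractions were covered for 13 members, 6 of the large and 7 of the small subunit. A further 14 were seen in extraction 1 only and 9 in extraction 2 only, and 33 had no value. The arrays gave no value for 23 large subunit genes (53.5%) and 10 small subunit genes (38.5%).

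**Figure D1:**
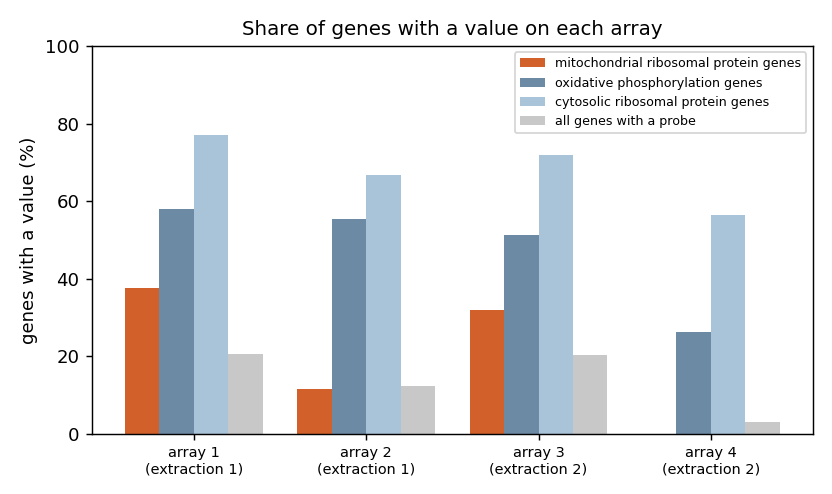
Share of genes with a value (vertical axis, percent) on each of the 4 arrays, for mitochondrial ribosomal protein genes, oxidative phosphorylation genes, cytosolic ribosomal protein genes and all genes with a probe. Mitochondrial ribosomal protein genes reached 37.7% on array 1 and 0 on array 4, and stood below both other lists on every array.

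The 13 members seen in both extractions were all above 0, and all had a mean below a 2-fold change. Their log2 ratios lay between 0.13 and 0.76 with a median of 0.26, or 1.2-fold, while the 1659 tested genes had a median of 0.0086 and 844 of them (50.9%) were above 0. A gene counted as called if it differed 2-fold or more and its p, adjusted over all genes by Benjamini-Hochberg in limma, was under 0.05. None of the 13 met both conditions, against 6.63% of all genes tested. Without the fold limit 1 of 13 passed, against 10.1% of all genes, and 2 had an unadjusted p under 0.05, against 568 of 1659 genes. At this size the test had little reach, since the smallest absolute log2 ratio of any gene with an adjusted p under 0.05 was 0.70 and the median SE was 0.14. In whole larvae a change of RNA per cell and a change in the share of tissues rich in that RNA cannot be told apart.

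All 13 tested members were above 0 on each array that measured them, against 36.4% of all genes tested and 37.4% of the 1301 without a value on array 4. Array 1 gave 20 of 26 members above 0 with a median of 0.14, against 50.9% of all genes there. On array 2 all 8 were above 0, with a median of 0.22 (54.3% of all genes), and on array 3 all 22, with a median of 0.30 (51.7% of all genes). On the 12 members that arrays 1 and 3 share, the medians were 0.20 and 0.27. The members share the pool, the labelling and the arrays, so they are not independent of each other, and no test was made over the list.

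**Figure D2:**
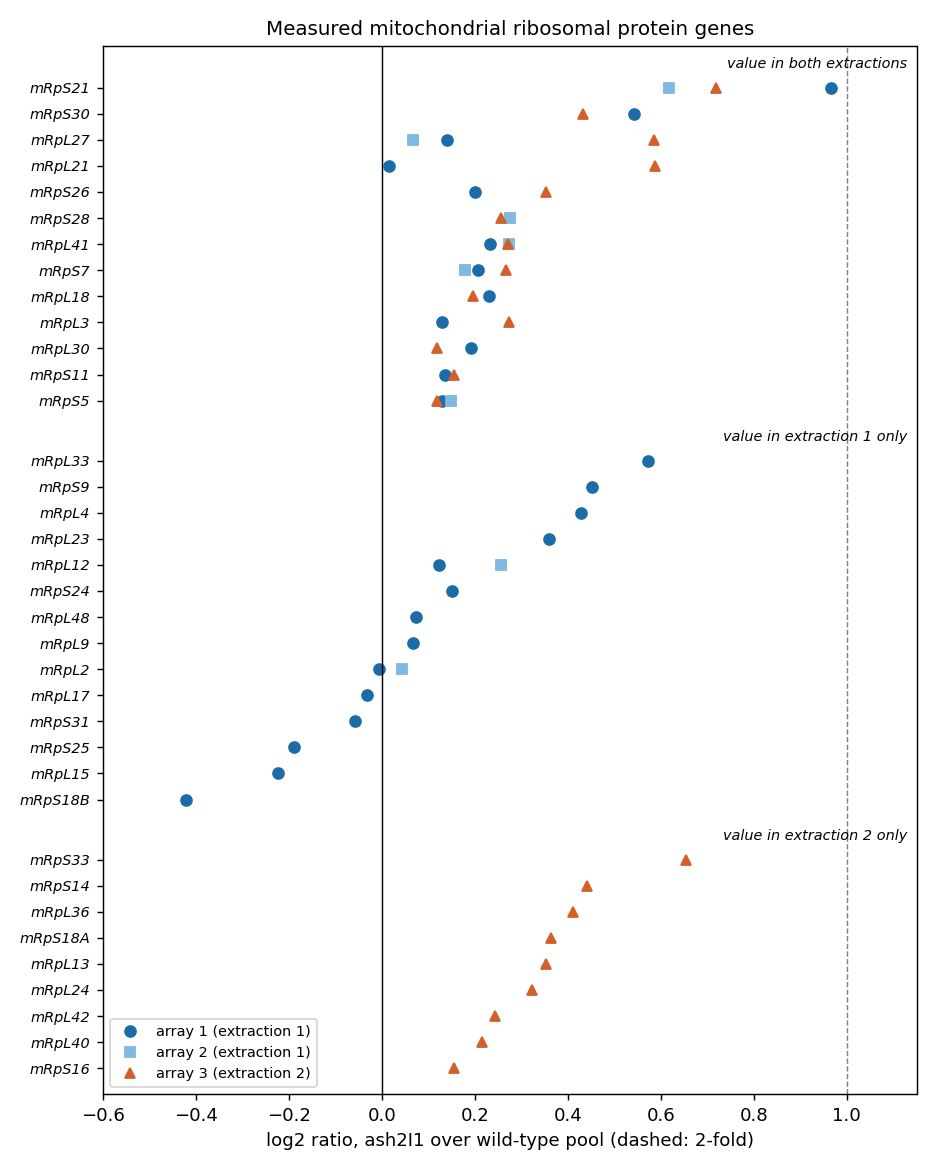
Log2 ratio of ash2I1 larvae over the wild-type pool (horizontal axis) for the 36 mitochondrial ribosomal protein genes with a value, grouped by the extractions that measured them. Circles, squares and triangles are arrays 1, 2 and 3, and the dashed line marks a 2-fold change. The 22 values of array 3 lie above 0, while 6 values of array 1 lie below it.

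*mRpS21*, whose bacterial counterpart is a small protein of the small subunit, stood highest. Its log2 ratios were 0.97 and 0.62 in extraction 1 and 0.72 in extraction 2. All 3 values exceeded those of every other tested member on the same array. The mean was 0.76 ± 0.13 (SE, n = 2), or 1.69-fold, with a 95% interval of 0.41 to 1.11 and an adjusted p = 0.0429 in limma. This was below the 2-fold limit, so the gene was not called, and it ranked at place 129 of 1659 from the highest. Without array 2 its adjusted p was 0.0741, with 1 probe per gene it was 0.05001, just above the threshold, and with every probe tested on its own it was 0.0516.

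*mRpS30* followed, with log2 ratios of 0.54 on array 1 and 0.43 on array 3. Its protein has no bacterial counterpart, and in mammals it sits in the large subunit in spite of its name. The mean of 0.49 ± 0.13 (SE, n = 2) gave a 1.4-fold ratio with a 95% interval of 0.13 to 0.84, but the adjusted p was 0.0875 in limma. These were the only tested members whose own interval lay above 0. Intervals are per gene and not adjusted, and those of *mRpS21* and *mRpS30* overlap.

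The other members of the small subunit varied little. *mRpS28* had log2 ratios of 0.28 on array 2 and 0.26 on array 3, and *mRpS26*, another protein without a bacterial counterpart, had 0.20 on array 1 and 0.35 on array 3. *mRpS7*, which in bacteria helps to start the folding of the subunit's head, had 0.21 and 0.18 in extraction 1 and 0.27 in extraction 2. The extractions differed by less than 0.1 for *mRpS28* and *mRpS7*, and by 0.15 for *mRpS26*. *mRpS11*, of the platform, had 0.14 on array 1 and 0.16 on array 3. *mRpS5*, whose bacterial counterpart lines the entry of the messenger, had 0.13, 0.15 and 0.12 on arrays 1 to 3 and was the lowest of the 13. Their means lay between 0.13 and 0.28, and their adjusted p-values in limma between 0.223 and 0.508.

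In the large subunit the highest means belonged to the genes on which the extractions differed most. *mRpL27*, close to the peptidyl transferase centre in bacteria, had log2 ratios of 0.14 and 0.068 in extraction 1 and 0.59 in extraction 2. *mRpL21* had 0.016 on array 1 and 0.59 on array 3. Their means were 0.35 ± 0.17 and 0.30 ± 0.19 (SE, n = 2), so the rank of both rests on array 3. *mRpL41*, a protein without a bacterial counterpart, had 0.23 and 0.27 in extraction 1 and 0.27 in extraction 2. *mRpL18*, whose bacterial counterpart binds the 5S ribosomal RNA, had 0.23 on array 1 and 0.20 on array 3. *mRpL3*, one of the proteins that order the core of the large subunit, had 0.13 on array 1 and 0.27 on array 3, and *mRpL30* had 0.19 on array 1 and 0.12 on array 3. All 6 were positive in both extractions, with adjusted p-values in limma from 0.229 to 0.439.

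**Figure D3:**
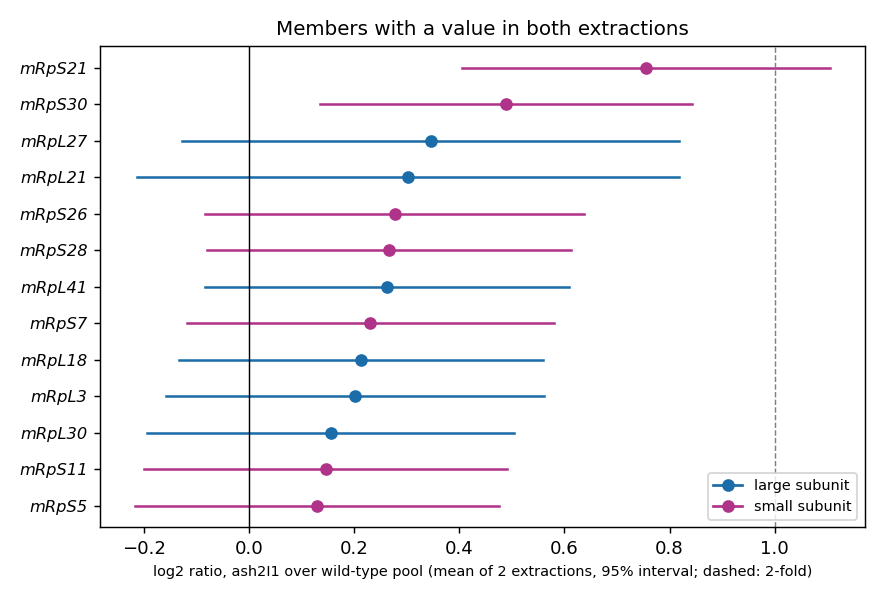
Mean log2 ratio of ash2I1 larvae over the wild-type pool with its 95% interval (limma, n = 2 extractions) for the 13 members with a value in both extractions. Colours give the subunit named in the symbol. All means lie above 0, and only the intervals of *mRpS21* and *mRpS30* do not reach it. The dashed line marks a 2-fold change.

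The upper bound of the interval was below a 2-fold change for 12 of the 13 members, the exception being *mRpS21*, and the lowest lower bound was -0.22, for *mRpS5*. The intervals of all 13 overlap, and 11 include 0. From *mRpL27* downwards, each member differed from the next in the order by less than the SE of either. Subunits were taken from the symbols, so *mRpS30* was counted as small. The median was 0.24 over 6 large subunit genes, with a range of 0.15 to 0.35. Over 7 small subunit genes it was 0.27, with a range of 0.13 to 0.76. Which of these medians is higher depends on where *mRpS30* is counted. The 10 members with a bacterial counterpart had a median of 0.22 and the 3 without one a median of 0.28. In both splits the ranges of the groups overlapped, and no test was made between them.

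The extractions differed little on these genes. The difference of extraction 2 minus extraction 1 had a median absolute size of 0.07 over the 13 members, against 0.23 over all 1659 genes. It was above 0 for 7 members and below 0 for 6, and it lay between -0.11 and 0.57. A gene with a small ratio also has less room to differ between extractions, and the 2 values were not compared by a test.

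**Figure D4:**
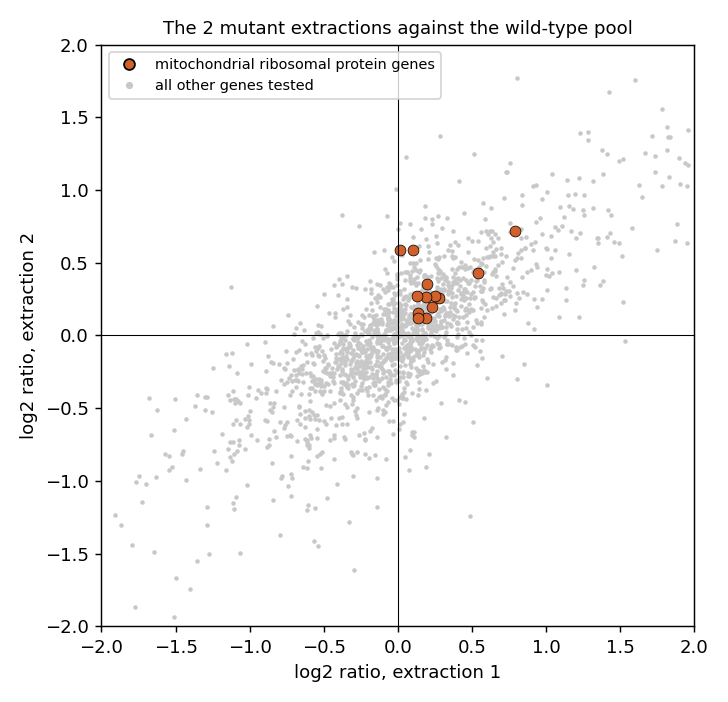
Log2 ratio in extraction 1 (horizontal axis) against extraction 2 (vertical axis) for the genes tested, with the 13 mitochondrial ribosomal protein genes in orange. The plot is limited to ratios between -2 and 2, which leaves out 49 other genes. The 13 members all lie above 0 on both axes.

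Members seen in only 1 extraction have no replicate, and their values are given as they stand. In extraction 2 all 9 were above 0, with a median of 0.35. *mRpS33*, a gene without a bacterial counterpart, had 0.65, *mRpS14*, of the subunit's head, 0.44, and *mRpL36*, whose bacterial counterpart is among the smallest ribosomal proteins, 0.41. *mRpS18A*, 1 of 3 fly relatives of a single bacterial protein, had 0.36, and *mRpL13* had 0.35. *mRpL24*, whose bacterial counterpart starts the assembly of the large subunit, had 0.32. The lowest 3 were *mRpL42* with 0.24, *mRpL40* with 0.21 and *mRpS16* with 0.15. Over all genes seen in extraction 2 only, 53.9% were above 0.

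In extraction 1 the 14 members without a partner value were more mixed, with 9 above 0, 5 below 0 and a median of 0.07. *mRpL33* had the highest value, 0.57, followed by *mRpS9* with 0.45, *mRpL4* with 0.43 and *mRpL23*, a protein at the exit of the peptide tunnel in bacteria, with 0.36. *mRpL12*, the stalk protein, which is required for growth driven by Cyclin D and Cdk4 in *Drosophila*, had 0.12 on array 1 and 0.26 on array 2. *mRpS24* had 0.15, *mRpL48* 0.073 and *mRpL9* 0.067. *mRpL2*, of the peptidyl transferase centre, had -0.0067 and 0.044 on its 2 arrays and was the one member with values of both signs. The members below 0 were *mRpL17* with -0.033, *mRpS31* with -0.059, *mRpS25* with -0.19, *mRpL15* with -0.22 and *mRpS18B* with -0.42. Each of these 5 rests on array 1 alone. Of all genes seen in extraction 1 only, 54.2% were above 0.

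Taken over the 36 members with any value, 31 (86.1%) had a mean above 0, against 52.6% of the 3507 genes with any value, and the medians were 0.24 for the members and 0.024 for all genes. Of the members' 56 single values 50 were positive. The members without a value included *mRpL1*, *mRpL10*, *mRpL11*, *mRpL16*, *mRpL19*, *mRpL20*, *mRpL22*, *mRpL28*, *mRpL32*, *mRpL35*, *mRpL37*, *mRpL38*, *mRpL39*, *mRpL43*, *mRpL44*, *mRpL45*, *mRpL46*, *mRpL49*, *mRpL50*, *mRpL51*, *mRpL52*, *mRpL54* and *mRpL55* in the large subunit. In the small subunit they were *mRpS2*, *mRpS6*, *mRpS10*, *mRpS17*, *mRpS18C*, *mRpS22*, *mRpS23*, *mRpS29*, *mRpS34* and *mRpS35*. A missing value means that the spot failed a quality threshold, and it does not say that the gene was silent.

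Cytosolic ribosomal protein genes were spread about 0. Of 93 genes for cytosolic ribosomal proteins or close relatives 39 had a probe annotated with no other gene, and 30 were tested. Among these 15 were above 0, with a median of -0.0017 and a range of -0.38 to 0.69, and none was called in limma. The highest value belongs to a close relative. The quartiles were 0.20 and 0.30 for the mitochondrial ribosomal protein genes, and -0.18 and 0.095 for the cytosolic list. Between the lists no test was made, so that these are descriptions of the same arrays.

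Genes of oxidative phosphorylation, most of whose complexes also hold subunits made on mitochondrial ribosomes, had a median near that of the members. Of 41 tested 35 were above 0, with a median of 0.22, and none was called. The 20 tested subunits of complex I, the first proton pump of the respiratory chain, had a median of 0.35, with 19 above 0. The 1 tested gene of complex II had 0.47. Complex III had a median of 0.18 over 4 genes, complex IV 0.12 over 7 and complex V, the ATP synthase, 0.079 over 9. The lists differed in their balance between extractions. In extractions 1 and 2 the medians were 0.46 and 0.19 for complex I and 0.31 and 0.082 for all complexes. They were 0.19 and 0.27 for the mitochondrial ribosomal protein genes, whose extraction 2 is array 3 alone. On array 3 by itself the medians were 0.27 over 18 complex I genes and 0.18 over 39 genes of all complexes. The 22 mitochondrial ribosomal protein genes there had 0.30.

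Array 4 bears on this comparison, because it measured respiratory genes and no mitochondrial ribosomal protein gene. The 6 complex I genes with a value on all 4 arrays had medians of 0.52, 0.28, 0.28 and 0.081 on arrays 1 to 4. For the 16 such genes of all complexes the medians were 0.19, 0.16, 0.21 and 0.063. Over the 278 such genes of the whole series they were 0.066, 0.058, 0.034 and 0.025. Whether the mitochondrial ribosomal protein genes would also have been closer to 0 on array 4 was not tested.

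**Figure D5:**
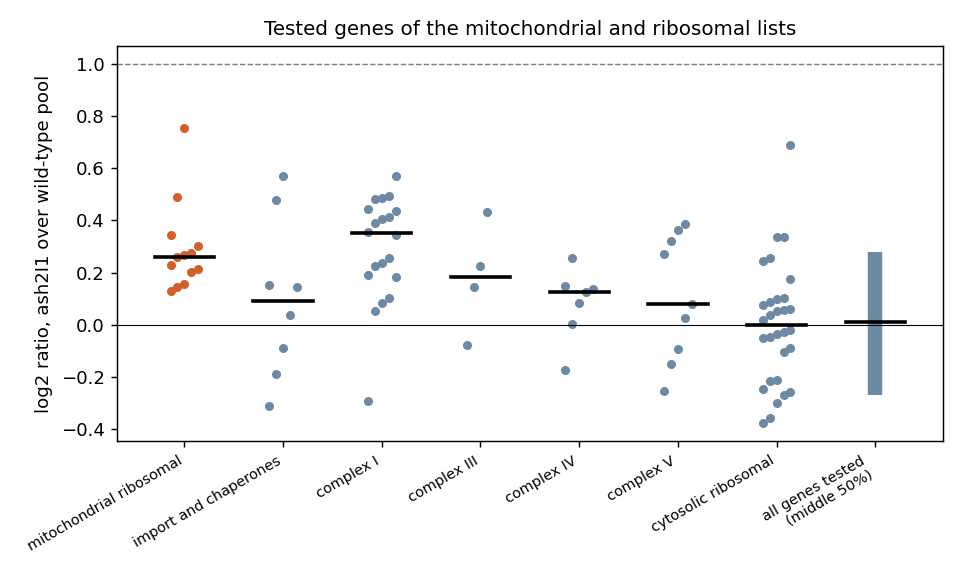
Log2 ratio of ash2I1 larvae over the wild-type pool (vertical axis) of each tested gene in 7 lists, with the median as a black bar. The last column gives the median and the span between the quartiles of all 1659 genes tested. The 13 mitochondrial ribosomal protein genes all lie above 0, with a median of 0.26, whereas cytosolic ribosomal protein genes lie on both sides of it.

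Other genes of mitochondrial translation and gene expression were seldom measured. Of 30 with a probe 4 had a value and 2 could be tested. *mEFTu1*, the elongation factor that brings transfer RNAs to the mitochondrial ribosome, had log2 ratios of 0.45 and 0.31 in extraction 1 and 0.36 in extraction 2, with a mean of 0.37 ± 0.13 (SE, n = 2) and an adjusted p = 0.132 in limma. *mEFTs*, which recharges it, had 0.13 on both arrays that measured it. In extraction 1 alone *mtSSB*, the protein that binds single-stranded mitochondrial DNA, had 0.37 and 0.41, and the synthetase gene *PheRS-m* had 0.19. All 4 were above 0, and neither of the 2 tested was called.

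The list of mitochondrial import and chaperone genes gave no common sign. Of 8 tested genes 5 were above 0 and none was called, with a median of 0.091. *Tim8* and *Tim10*, small carriers of the space between the membranes, had the highest means, 0.57 ± 0.13 and 0.48 ± 0.14 (SE, n = 2), with adjusted p = 0.0635 and 0.0997 in limma. *Phb2*, a prohibitin of the inner membrane, had a mean of -0.31 ± 0.13 (SE, n = 2), and *Tom40*, the channel of the outer membrane, had -0.34 on array 3 alone. Values of both signs thus stood among the 4 genes farthest from 0.

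Regulators of growth and of mitochondrial genes were almost out of reach, since 5 of 12 with a probe had a value. *Nop60B*, a nucleolar pseudouridine synthase, was the one tested, with -0.086 on array 1 and -0.37 on array 3. *Dref*, the factor that binds the DNA replication element, had -0.61 and -0.42 in extraction 1, and *Mnt*, a partner of Max that opposes Myc, had -0.56 on array 3. *Max* itself had 0.26 on array 1. Of the mitochondrially encoded genes none had a probe with a gene of its own in the annotation used.

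Markers of tissues moved in these RNAs, and the part of that in the small ratios above was not tested. In the fat body list 2 of 3 tested markers fell (*Lsp2* with -2.11 and *Fbp1* with -1.46), and in the midgut list 4 of 9 rose (*Amy-d*, *Amy-p*, *Jon44E* and *alphaTry*, 1.10 to 1.97) and *Jon66Cii* fell (-1.85). The salivary gland list ran in both directions. Of its 5 tested markers *Eig71Ee* fell (-2.09), and 4 were not called in limma, *Sgs5* with -2.78, *Sgs4* with -0.74, *ng1* with 0.80 and *ng2* with 0.80, while *ng3* had 1.98 on array 1 alone. No marker of muscle (3 tested) or haemocytes (1 tested) was called, and *PPO2*, of the haemocyte list, had 2.32 on array 1 alone. Among markers of dividing cells only *PCNA* could be tested, with -0.74 and -0.45 in extraction 1 and -0.45 in extraction 2 (adjusted p = 0.0798 in limma). In extraction 1 alone *Mcm6* had a mean of -0.53, *aurB* -0.68, *RnrL* 0.18 and *dpa* 0.086, so both signs were present. The deposited values are ratios, so the level of a marker in either RNA cannot be given. The lists of fat body, salivary gland, midgut and muscle each held markers with a value, as whole larvae hold these tissues. Of 9 imaginal disc markers with a probe only *ci* had a value, -0.84 on array 1. Of 5 markers of neurons and glia only *elav* had one, -0.60 on array 3.

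The study asked whether changed genes lie close together, so the neighbours of the 13 tested members were looked up in the current gene order. This is another measure than the paper's clusters, which were groups of changed genes within a set distance and not necessarily adjacent. The members are spread over the arms, with 3 each on X, 2R and 3L and 2 each on 2L and 3R. Of the 52 protein-coding genes within 2 places of a tested member 13 were tested, 9 of them above 0 and none called. Over all genes tested 50.9% were above 0 and 6.63% were called. Their log2 ratios ran from -0.50 for *da*, next to *mRpS7*, to 1.16 for *Gs1l*, 2 places from *mRpL27* (adjusted p = 0.0578 in limma). *Droj2*, the one tested neighbour of *mRpS21*, had 0.22.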

How the data were processed

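The authors deposited log2 ratios of 4 two-colour arrays with an oligonucleotide set. Per the paper's methods, slides were scanned with GenePix, failed spots were dropped, background was corrected with normexp, and ratios were normalised with OLIN within arrays and by median absolute deviation between the 4 arrays. The submitters' processing notes also name limma, with no version in any source read. The direction is Cy5 (mutant) over Cy3 (pool), with no dye swap per the labels, as in limma's convention. Its sign was also read from genes for which the study names a direction in *ash2* mutants. *br*, named as reduced, had -1.04, and *CG13461* and *CG13460*, named in a cluster of raised genes, had 1.43 and 1.01. These come from the same arrays, so they fix the sign and nothing else. Base 2 is likely, not stated. Array medians lay between -0.019 and 0.040, and arrays held 1108 to 3513 values of 16416 probes.

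Of these probes 13164 had 1 gene symbol, brought up to date by identifier from the Release 6 gene table. Each array's probes were averaged by gene, and then the arrays of an extraction, since they carry the same amplified RNA. An intercept was fitted with limma 3.58.1 (R 4.3.3) to 1659 genes with a value in both extractions, and called genes had an adjusted p under 0.05 and a 2-fold change. The fit was tested on simulated data. Members, gene lists and the naming rule (every member with a value; up to 4 called genes of a comparison list; the 4 measured genes farthest from 0 in the translation, import and regulator lists; called tissue markers) were chosen with earlier results of these data known. The markers of dividing cells, *PPO2*, *ci*, *elav* and the salivary gland markers not called fall outside it. So do the genes that fix the sign and the neighbouring genes. All of these were named after their values were seen. Alternatives changed scaling, probes, filters, the model and the threshold, or left out arrays. Promoter motifs were not examined and no sequences are shown.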

Additional observations from a re-analysis of the deposited data

How the results depend on the processing

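No member was called under any alternative that could test members and kept a fold limit, and without the minimum fold change 1 member (*mRpS21*) and 168 genes passed. The members' median stayed between 0.24 and 0.27 and each member stayed above 0 under every alternative that tested it. *mRpS21* kept an adjusted p (limma) between 0.0157 and 0.0935 over the alternatives. It was 0.0157 with 4 arrays as separate values, 0.0516 with all probes tested and 0.0935 against a fold change of 1.2. Among all genes the count of 110 became 49 of 278 for genes on all 4 arrays, 65 against a fold change of 1.2, and 0 to 123 when single arrays were left out. That lowest count, without array 3, came from 358 genes, 67 of them with an unadjusted p under 0.05, and without array 2 the count was 55. No member could be tested without array 3 or on all 4 arrays, so the result for these genes cannot be had without array 3. Without array 1 there were 6 members left to test.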
